A study of Homo sapiens with 6 samples.

Results

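The CCR4-NOT complex shortens the poly(A) tails of mRNAs, and 10 genes of its subunits, CNOT1, CNOT2, CNOT3, CNOT4, CNOT6, CNOT6L, CNOT7, CNOT8, CNOT10 and CNOT11, were examined as RNAs crosslinked to IGF2BP3. They were chosen by name, as subunits of the complex. A cluster, a stretch of overlapping crosslinked reads, was assigned to a gene when it shared at least 1 nt with one of its exons on the same strand (GENCODE release 44, GRCh38). Of 244645 clusters in all libraries, 478 lay on these genes. They fell on 9 of the 10 genes, and CNOT3 had no cluster in any library.

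The data came from infrared PAR-CLIP of endogenous IGF2BP3 in HCT116 cells, a human colorectal carcinoma line that carried the Tet-OsTIR1-PURO genotype in every group. All cells received 100 µM 4-thiouridine (4sU) for 15 h and were irradiated at 365 nm, which links 4sU to bound protein and leaves T-to-C conversions in the reads. RNA was cut with RNase I at 0.05/0.05, 0.1/0.025 or 0.05/0.025 U/µL, or with RNase T1 at 1/1 or 0.25/0.25 U/µL, where the values are the concentrations in the lysate and on the beads as the labels give them. A 6th library used IgG in place of the antibody to IGF2BP3, with RNase I at 0.1/0.025 U/µL. There was 1 library per condition. The conditions therefore could not be tested against each other, and the 95% intervals given here cover counting error only. Only by pooling doses and gel extractions can the enzymes be tested, as 3 RNase I against 2 RNase T1 libraries, where a two-sided exact permutation test cannot go below p = 0.2. Reads were deduplicated by molecular identifiers. For RNase I 0.05/0.05 and RNase T1 1/1 the crosslinked RNA was electroeluted from the gel, and for the other IGF2BP3 libraries the gel was crushed, so these 2 libraries differ from the others of their enzyme in both concentration and extraction, which cannot be told apart there. RNase I 0.1/0.025 and 0.05/0.025 shared the extraction and differed in the lysate concentration. The antibody partly recognizes the paralog IGF2BP2, and RNA abundance was not measured, so a read number joins the amount of a transcript with its binding. RNase concentrations label the libraries below.

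CNOT1 is the scaffold on which the complex is built. CNOT6 and CNOT6L are deadenylases of the CCR4 type, CNOT7 and CNOT8 are deadenylases of the CAF1 type, and both types remove adenosines from the 3′ end of mRNAs. CNOT2 and CNOT3 form the NOT module with the end of CNOT1, CNOT10 and CNOT11 form a module at its other end, and CNOT4 is a ubiquitin ligase that joins the complex loosely. IGF2BP3 is an oncofetal RNA-binding protein that binds the coding sequence and 3′UTR of many mRNAs and is known for protecting them from decay.

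The 5 IGF2BP3 libraries held between 182448 (RNase T1 0.25/0.25) and 2362467 (RNase I 0.05/0.05) reads in clusters, and values are given as reads scaled to 1000000 of these cluster reads (CPM). The IgG library held 324 reads in 25 clusters, none of them on a CCR4-NOT gene. Its total is too small to give a background level per gene.

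The subunit mRNAs took a small and similar share of each library. They held 3490 reads after RNase I 0.05/0.05, or 0.148% of cluster reads (95% Wilson interval 0.143 to 0.153%). The shares were 0.15% after RNase I 0.1/0.025 (0.142 to 0.159%), 0.138% after RNase I 0.05/0.025 (0.129 to 0.147%), 0.148% after RNase T1 1/1 (0.141 to 0.155%) and 0.128% after RNase T1 0.25/0.25 (0.112 to 0.145%). The last library had only 233 such reads. Within the complex the reads were uneven: CNOT6 and CNOT7 together held 55% of them after RNase I 0.05/0.05, 57.4% after RNase I 0.1/0.025, 61.4% after RNase I 0.05/0.025, 61.2% after RNase T1 1/1 and 92.3% after RNase T1 0.25/0.25. The 4 deadenylase genes together took between 64.7% (RNase I 0.1/0.025) and 94.8% (RNase T1 0.25/0.25).

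**Figure D1:**
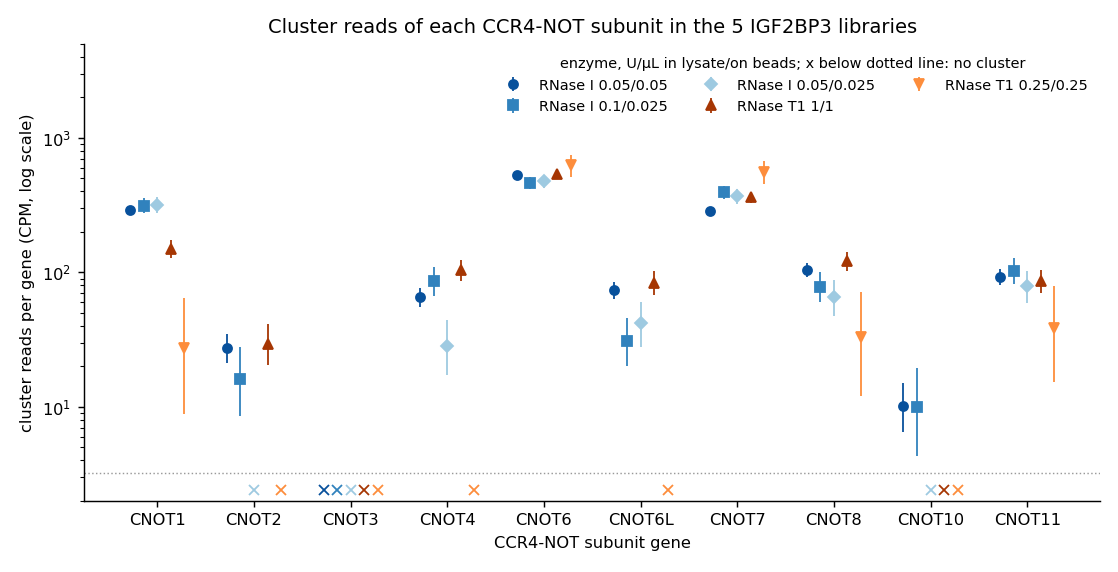
Cluster reads per gene in CPM (log scale) for the 10 CCR4-NOT subunit genes in the 5 IGF2BP3 libraries; bars are 95% Poisson intervals of the read count, and an x below the dotted line marks a library with no cluster on that gene. CNOT6 lies between 464 and 625 CPM in every library, whereas CNOT1 lies near 300 CPM after RNase I and at 149 and 27.4 CPM after RNase T1.

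Per kilobase of the canonical transcript, the order of the subunits was led by CNOT6 in every library. CNOT6 had 84.5, 74.6 and 76.5 CPM per kb in the RNase I libraries 0.05/0.05, 0.1/0.025 and 0.05/0.025, and 87.1 and 100 CPM per kb in the RNase T1 libraries 1/1 and 0.25/0.25. CNOT7 had 41.7, 57.4, 53.7, 52.4 and 80.3 CPM per kb in the same order of libraries, and stood second in all but RNase I 0.05/0.05, where CNOT8 was marginally higher with an overlapping interval. The counting intervals of CNOT6 and CNOT7 did not overlap in 4 libraries, and they overlapped after RNase T1 0.25/0.25 (82.9 to 121 and 65.4 to 97.6). This order rests on annotated lengths. The 6890 nt of CNOT7 include a 3′UTR of 5754 nt on which no cluster lay past 1471 nt after the stop codon. An order over the covered part alone was not computed, and CNOT7 could stand higher in it. In RNase I 0.05/0.05, CNOT8, CNOT11 and CNOT1 had 42.7, 36.9 and 34.5 CPM per kb. The intervals of CNOT8 and CNOT11 overlapped in every library. CNOT4 had 18.5 CPM per kb in that library, CNOT2 9.67, CNOT6L 8.40 and CNOT10 3.66.

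A gene was called a target by the rule of the study's methods, at least 1 cluster that lies above 10 CPM and in which T-to-C conversions number over 0.5 per read. CNOT1, CNOT6, CNOT7, CNOT8 and CNOT11 met it in all 5 libraries. The share of all coding genes called in all 5 was not computed, so this recurrence has no background beside it. Without clusters that hold a 25-nt stretch found elsewhere in the genome, an alternative chosen after seeing the data, CNOT7 was no longer called in RNase I 0.05/0.05 and CNOT6L no longer in RNase I 0.05/0.025. Of the 9 subunit genes with a cluster, 7 were called after RNase I 0.05/0.05, beside 46.9% of the 9353 coding genes with a cluster in any IGF2BP3 library. With RNase I 0.1/0.025, 6 were called (background 45.6%), and after RNase I 0.05/0.025 also 6 (background 47.1%). With RNase T1 1/1, 7 were called (background 42.1%), and after RNase T1 0.25/0.25, 5 (background 29.3%). The counts stood above the background shares in all 5 libraries, but 9 genes are few and no test was made. CNOT4 was called after RNase I 0.05/0.05, RNase I 0.1/0.025 and RNase T1 1/1, CNOT6L after RNase I 0.05/0.025 and RNase T1 1/1, and CNOT2 after RNase I 0.05/0.05. CNOT10 was called in none. The limit of 10 CPM stands for 23.6 reads after RNase I 0.05/0.05 and for 1.82 reads after RNase T1 0.25/0.25, so the rule asks for far less evidence in the smallest library.

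CNOT6, a CCR4-type deadenylase encoded at chr5:180494379-180578358 on the plus strand, was the subunit with the most reads. It had 1242 reads (526 CPM) after RNase I 0.05/0.05, 373 (464 CPM) after RNase I 0.1/0.025, 319 (476 CPM) after RNase I 0.05/0.025, 627 (542 CPM) after RNase T1 1/1 and 114 (625 CPM) after RNase T1 0.25/0.25. The level thus varied little over enzymes and doses, and CNOT6 ranked between 265 and 390 among the coding genes with a cluster, of which there were 3339 to 8760 per library. Most of its reads lay in the last exon, exon 12 of 12, which holds its 3′UTR of 4158 nt. The 3′UTR share of its reads was 77.3% after RNase I 0.05/0.05, 86.9% after RNase I 0.1/0.025, 82.4% after RNase I 0.05/0.025, 88.0% after RNase T1 1/1 and 100% after RNase T1 0.25/0.25. Its clusters were joined over the libraries into 36 sites, and 6 of them, all in the 3′UTR, were found in all 5 libraries. Here the strongest site of a gene is the one with the highest mean CPM over the 5 libraries. That of CNOT6, chr5:180577311-180577991, lay 3111 to 3791 nt after the stop codon and had 337, 130 and 93 reads in the RNase I libraries and 105 and 39 reads in the RNase T1 libraries. That site chained overlapping clusters over 681 nt and need not be a single binding event. A compact site of 90 nt, 328 to 417 nt after the stop codon (chr5:180574528-180574617), had 39, 18 and 14 reads after RNase I but 107 and 26 reads after RNase T1, or 16.5, 22.4, 20.9, 92.5 and 143 CPM. It held the largest CNOT6 cluster of both RNase T1 libraries, with 107 reads and 0.402 conversion events per read at 1/1, and 26 reads and 0.231 events at 0.25/0.25. The largest CNOT6 cluster of each RNase I library lay in the strongest site, with 267, 51 and 54 reads and 0.644, 0.686 and 0.593 events per read. A further site, 1332 to 1599 nt after the stop codon (chr5:180575532-180575799), had 94, 30, 33, 87 and 5 reads.

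Windows of the cluster with the highest CPM at each of these sites, centered on its mode where the cluster allows, are shown 5′ to 3′ to let the RNA under the main CNOT6 crosslinks be read; capitals mark CATT or CATA or CATC, tetramers that read with U for T in the RNA. All lie in the 3′UTR on the plus strand of GRCh38.
CNOT6, 90-nt site (chr5:180574576-180574605, RNase T1 0.25/0.25): gatCATTcttcCATActttactccctcctt
CNOT6, middle site (chr5:180575609-180575638, RNase I 0.05/0.025): agcaagataaaaattaCATCATAccgtcta
CNOT6, strongest site (chr5:180577752-180577781, RNase I 0.05/0.05): agaatgtcaCATCcgcccagacagctcttt
The window that was favored by RNase T1 held 13 T in 30 nt, and the other windows held 7 each.

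CNOT6L, the paralog of CNOT6, was far less covered although its 3′UTR of 7044 nt is the longest of the complex. It lies on the minus strand at chr4:77713387-77819615. It had 174 reads (73.7 CPM) after RNase I 0.05/0.05, 25 (31.1 CPM) after RNase I 0.1/0.025, 28 (41.7 CPM) after RNase I 0.05/0.025 and 97 (83.8 CPM) after RNase T1 1/1, and no cluster was listed after RNase T1 0.25/0.25. Its reads were spread over 22 sites, of which none was found in all 5 libraries and 13 were found in 1 library. The strongest (chr4:77720385-77720549, exon 12 of 12) chained clusters from −118 to 46 nt around the stop codon, with 32, 5, 12 and 8 reads in those 4 libraries. A cluster of 12 reads in RNase I 0.05/0.05 crossed the stop codon, and the other clusters of the site ended before it. Clusters reached to 6915 nt after the stop codon. Of its 38 clusters, 19 held a stretch of 25 nt that also occurs elsewhere in the genome, and they carried 175 of its 324 reads. Clusters on the processed pseudogene CNOT6LP1 held 50, 5, 12 and 13 reads, so the origin of reads within the CNOT6L copies is uncertain.

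CNOT7, the CAF1-type deadenylase on chromosome 8 (minus strand), came second in reads over all libraries, though CNOT1 had slightly more in RNase I 0.05/0.05. It had 678 reads (287 CPM) after RNase I 0.05/0.05, 318 (396 CPM) after RNase I 0.1/0.025, 248 (370 CPM) after RNase I 0.05/0.025, 418 (361 CPM) after RNase T1 1/1 and 101 (554 CPM) after RNase T1 0.25/0.25. The lowest value thus came from the largest RNase I library and the highest from the smallest RNase T1 library. Clusters on the canonical 3′UTR, 5754 nt long, ended 1471 nt after the stop codon, and no library listed a cluster on the rest of it. The 3 strongest sites lay 278 to 585, 1096 to 1471 and −11 to 172 nt from the stop codon, and all 3 were found in all 5 libraries. Its largest cluster per library had 180, 67 and 63 reads after RNase I and 63 and 14 after RNase T1, all in the 3′UTR. The site from 1096 to 1471 nt had 120, 79 and 67 reads after RNase I and 159 and 28 after RNase T1. The site from 278 to 585 nt had 180, 97 and 67 reads after RNase I and 58 and 34 after RNase T1. A 5th site common to all libraries lay in the coding sequence, the only one of the 13 common sites outside a 3′UTR. A further 11 clusters lay off the canonical transcript, in exons of other CNOT7 transcripts. The largest of these sites had 30, 14, 5 and 45 reads in the first 4 libraries and none in RNase T1 0.25/0.25, and it was annotated as the 3′UTR of a shorter transcript.

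Repeats of sequence touch CNOT7 more than any other subunit. Of its 82 clusters, 51 held a 25-nt stretch found elsewhere in the genome, and these held 1407 of its 1763 reads. Without them, its reads were 56, 48, 22, 171 and 59 in the 5 libraries (23.7, 59.7, 32.8, 148 and 323 CPM). A shorter cluster holds fewer 25-nt stretches by construction, and RNase T1 clusters were the shorter ones, so these remainders cannot be compared between enzymes. Clusters on the processed pseudogene CNOT7P1 held 27, 5 and 6 reads in the RNase I libraries and none were listed after RNase T1. CNOT7 values are therefore uncertain as to the copy they came from.

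**Figure D2:**
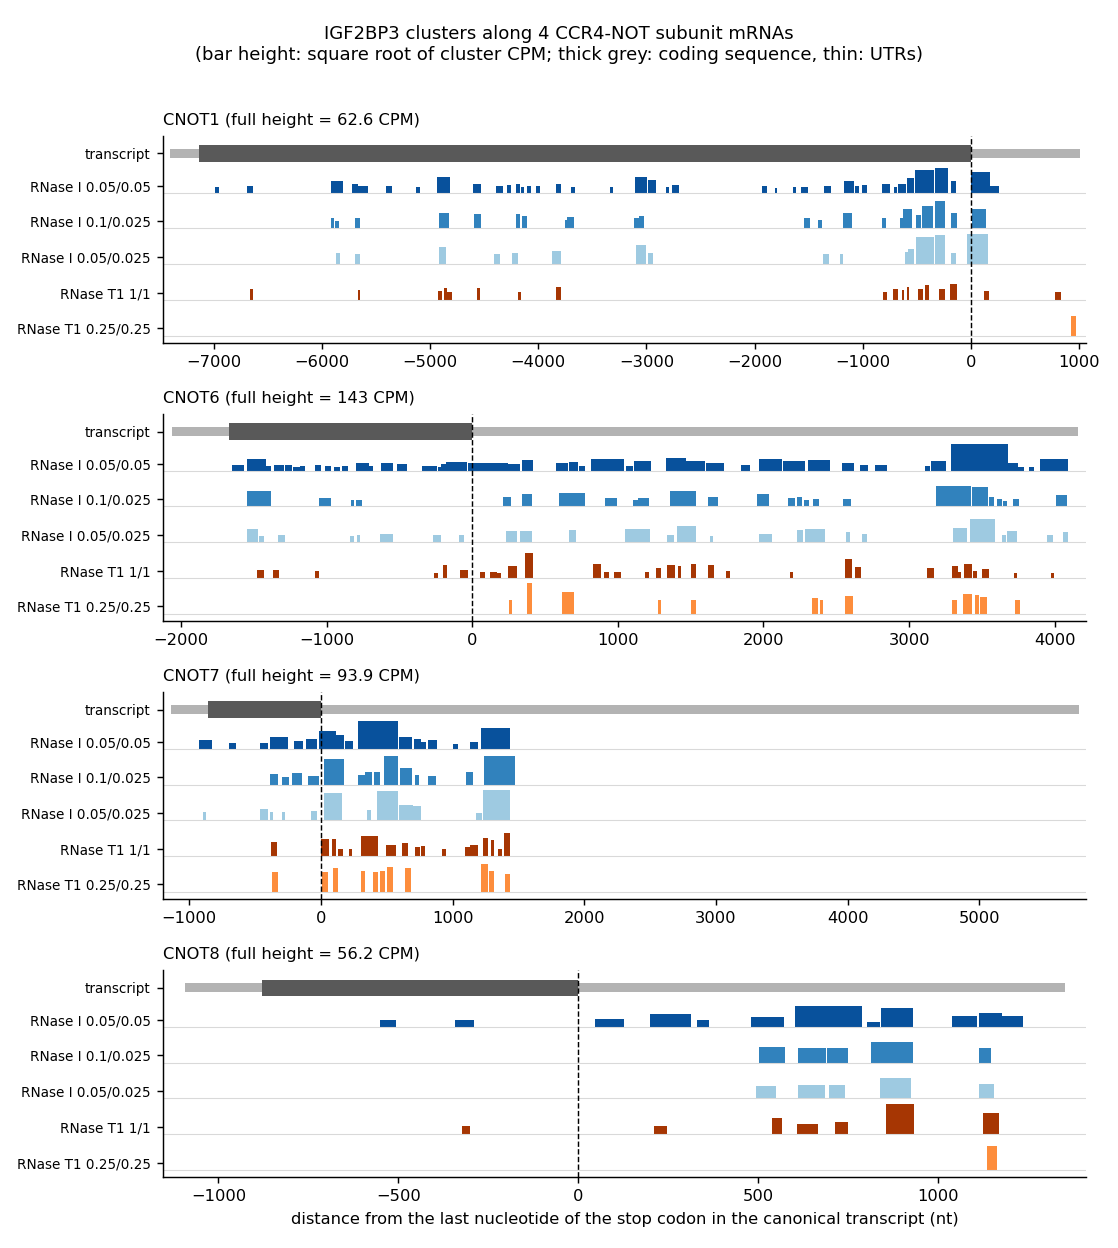
Clusters along the canonical transcripts of CNOT1, CNOT6, CNOT7 and CNOT8, with the distance from the end of the stop codon in nt on the x axis, 1 row per IGF2BP3 library and bar height as the square root of cluster CPM relative to the largest cluster of that gene. CNOT1 clusters are spread over the coding sequence, CNOT6 and CNOT8 clusters over the 3′UTR, and CNOT7 clusters end 1471 nt into a 3′UTR of 5754 nt; clusters off the canonical transcript are not drawn.

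CNOT8, the paralog of CNOT7, had 247 reads (105 CPM) after RNase I 0.05/0.05, 63 (78.4 CPM) after RNase I 0.1/0.025, 44 (65.6 CPM) after RNase I 0.05/0.025, 140 (121 CPM) after RNase T1 1/1 and 6 (32.9 CPM) after RNase T1 0.25/0.25. It lies at chr5:154857553-154876792 on the plus strand. None of its 30 clusters held a 25-nt stretch found elsewhere. At least 95.1% of its reads lay in the 3′UTR in each library. The strongest of its 11 sites, 802 to 932 nt after the stop codon, had 57, 21, 16 and 65 reads and was not listed after RNase T1 0.25/0.25. The only site found in all 5 libraries lay 1114 to 1176 nt after the stop codon, with 27, 10, 8, 30 and 6 reads. The next lines show a window of each, since they are the main crosslinked stretches of a deadenylase mRNA with unique sequence; both are in exon 7 of 7, 3′UTR, plus strand.
CNOT8, strongest site (chr5:154876294-154876323, RNase T1 1/1): atttcagatggtCATCtggattctcccact
CNOT8, site of all 5 libraries (chr5:154876576-154876603, RNase T1 0.25/0.25): acaatttcaaaaaccaaaacccactttg
A tetramer of the CATT, CATA and CATC group lay in the first window and none in the second, which is a whole RNase T1 cluster and ends in G.

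CNOT1, the scaffold, differed from the deadenylases in where its reads lay. It is encoded at chr16:58519951-58629885 on the minus strand, with a coding sequence of 7131 nt and a 3′UTR of 1007 nt. It had 686 reads (290 CPM) after RNase I 0.05/0.05, 252 (314 CPM) after RNase I 0.1/0.025, 213 (318 CPM) after RNase I 0.05/0.025, 172 (149 CPM) after RNase T1 1/1 and 5 (27.4 CPM) after RNase T1 0.25/0.25. All 3 RNase I values lay above both RNase T1 values. The coding share of its reads was 88.9%, 92.1% and 80.3% after RNase I and 93.6% after RNase T1 1/1, and the single cluster after RNase T1 0.25/0.25 was in the 3′UTR. Per kilobase, CNOT1 coding sequence and 3′UTR had 36.2 and 31.9 CPM per kb in RNase I 0.05/0.05, 40.5 and 24.7 in RNase I 0.1/0.025, 35.8 and 62.2 in RNase I 0.05/0.025, and 19.5 and 9.44 in RNase T1 1/1. The 3′UTR was thus the denser region in RNase I 0.05/0.025 and the coding sequence in the other 3 of these libraries. In RNase I 0.05/0.025, however, all 42 of these 3′UTR reads came from 1 cluster, from −41 to 155 nt around the stop codon. That cluster was counted wholly as 3′UTR, so the order there depends on how it is assigned. Its 42 sites included 38 in coding sequence, on 27 of its 49 exons. None was found in all 5 libraries and 8 were found in 4, all of them missing in RNase T1 0.25/0.25. The strongest lay in exon 47 of 49 (chr16:58523369-58523492), 336 to 214 nt before the end of the stop codon, with 99, 40, 39, 9 and 0 reads, or 41.9, 49.8, 58.1, 7.78 and 0 CPM. It also held the largest CNOT1 cluster of RNase I 0.05/0.05 and 0.1/0.025, while that of RNase I 0.05/0.025 spanned the stop codon with 42 reads. The leading site was thus over 5 times lower in CPM after RNase T1 1/1 than in each RNase I library. It was chosen by a mean in which RNase I libraries were the majority, so the choice itself favors such a difference. Not every CNOT1 site showed it, and a site in exon 48 was higher after RNase T1 1/1 than in each RNase I library.
The cluster of RNase I 0.05/0.025 at this site, printed whole because it is the leading coding-sequence crosslink of the complex, read as follows on the minus strand.
CNOT1, exon 47 (chr16:58523394-58523487): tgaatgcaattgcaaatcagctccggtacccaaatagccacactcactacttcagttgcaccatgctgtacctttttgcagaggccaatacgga
None of the tetramers CATT, CATA and CATC occurred in these 94 nt.

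CNOT11 and CNOT10, which form a module of the complex, lay far apart in reads. CNOT11 (chr2:101252886-101270316, plus strand) had 219 reads (92.7 CPM) after RNase I 0.05/0.05, 83 (103 CPM) after RNase I 0.1/0.025, 53 (79.0 CPM) after RNase I 0.05/0.025, 100 (86.4 CPM) after RNase T1 1/1 and 7 (38.4 CPM) after RNase T1 0.25/0.25. Its 3′UTR share was between 57.0% and 64.4% in the first 4 libraries, and the 7 reads of the last lay in the 3′UTR. The strongest of its 14 sites (chr2:101269376-101269557) chained clusters around the stop codon, had 54, 23, 10, 29 and 7 reads and was the only one found in all 5 libraries. A cluster of RNase I 0.05/0.05, from −5 to 51 nt, crossed the stop codon, but none of the site did in RNase I 0.1/0.025 or RNase T1 0.25/0.25. CNOT10 (chr3:32685145-32773875, plus strand) had 24 reads (10.2 CPM) after RNase I 0.05/0.05 and 8 (9.96 CPM) after RNase I 0.1/0.025, and no cluster was listed in the other libraries. The 8 reads formed 1 cluster in exon 15 of 19, at 9.96 CPM just short of the target rule's limit, with 1.0 conversion events per read. Another CNOT10 cluster, of 6 reads, also overlapped an exon of the pseudogene SUGT1P2 and was the only member cluster shared with another gene.

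CNOT2, CNOT3 and CNOT4 had the remaining reads. CNOT2 (chr12:70243002-70354993, plus strand) had 65 reads (27.5 CPM) after RNase I 0.05/0.05, 13 (16.2 CPM) after RNase I 0.1/0.025 and 34 (29.4 CPM) after RNase T1 1/1, and no cluster was listed after RNase I 0.05/0.025 or RNase T1 0.25/0.25. All but 3 of these reads were in clusters that touched the 3′UTR, and the strongest of its 7 sites lay 410 to 538 nt after the stop codon. CNOT3 (chr19:54137749-54155681), which pairs with CNOT2 in the NOT module, had none, and since only called clusters were listed its reads are not known to be 0. CNOT4 (chr7:135361795-135510145, minus strand) had 155 reads (65.6 CPM) after RNase I 0.05/0.05, 69 (85.9 CPM) after RNase I 0.1/0.025, 19 (28.3 CPM) after RNase I 0.05/0.025 and 120 (104 CPM) after RNase T1 1/1. No CNOT4 cluster was listed after RNase T1 0.25/0.25. Its 3′UTR share, by the features of all transcripts, was 40.6%, 47.8% and 0% after RNase I and 81.7% after RNase T1 1/1. Some clusters counted there lay in coding sequence of the canonical transcript, or off that transcript. Of its 19 sites, 8 were found only after RNase T1, all at 1/1, against 2 of 36 for CNOT6 and 2 of 42 for CNOT1. The 4 CNOT4 clusters off the canonical transcript were among these 8. The share of such sites over all coding genes was not computed. The largest CNOT4 cluster was in coding sequence in each RNase I library (33, 9 and 9 reads) and in the 3′UTR after RNase T1 1/1 (19 reads). The lines below show its strongest site, 23 to 146 nt after the stop codon, beside that of CNOT2; they are printed for their runs of T.
CNOT4 (chr7:135362742-135362768, minus strand, 3′UTR, RNase T1 1/1): atcaattttttttctccctaaccccag
CNOT2 (chr12:70354325-70354354, plus strand, 3′UTR, RNase I 0.05/0.05): aaataacaaatgtttgtgCATTtttatgtg
The CNOT4 window held 11 T in 27 nt and is a whole cluster that ends in G, and the CNOT2 window held 13 T in 30 nt with CATT in capitals.

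Over the whole complex, the share of reads on the 3′UTR was higher in both RNase T1 libraries than in the 3 RNase I libraries. Clusters that touched the 3′UTR held 64.7% of the reads after RNase I 0.05/0.05 (63.1 to 66.3%), 68.0% after RNase I 0.1/0.025 (65.3 to 70.6%) and 68.0% after RNase I 0.05/0.025 (64.9 to 70.9%). They held 80.5% after RNase T1 1/1 (78.6 to 82.3%) and 97.0% after RNase T1 0.25/0.25 (93.9 to 98.5%). The coding shares were 35.1%, 32.0% and 31.5% after RNase I and 19.5% and 3.0% after RNase T1. The intervals of both RNase T1 libraries lay apart from all those of RNase I. The 3′UTR share over the clusters of all coding genes was not computed, so no background stands beside these shares. As 3 against 2 libraries, the mean was 66.9% ± 1.91 (SD, n = 3) for RNase I and 88.8% ± 11.7 (SD, n = 2) for RNase T1, with a two-sided exact permutation p = 0.2, the smallest this design allows, and an adjusted p = 0.35 over 7 values tested. The genes that made up the reads changed as well. CNOT1, mostly coding, held 19.7%, 20.9% and 23.1% of the subunit reads in the RNase I libraries but 10.1% and 2.15% in the RNase T1 libraries. Within single genes the direction differed, but no intervals were computed for these shares and some gaps were small. The 3′UTR share in RNase T1 1/1 was below that of RNase I within CNOT1 (6.40% against 7.94 to 19.7%) and CNOT11 (57.0% against 60.4 to 64.4%). It was above within CNOT4 (81.7% against 0 to 47.8%), CNOT6 (88.0% against 77.3 to 86.9%) and CNOT7 (94.7% against 84.4 to 90.6%). Within CNOT2, CNOT6L and CNOT8 it lay in the range of RNase I. In RNase T1 0.25/0.25, CNOT1 and CNOT11 went the other way, both at 100% from 5 and 7 reads. CNOT6 (100%) and CNOT7 (93.1%) lay above RNase I there too. The part of this makeup in the pooled shares was not tested. The last library had 233 subunit reads in all, and the part of its depth in the 97.0% was not tested.

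**Figure D3:**
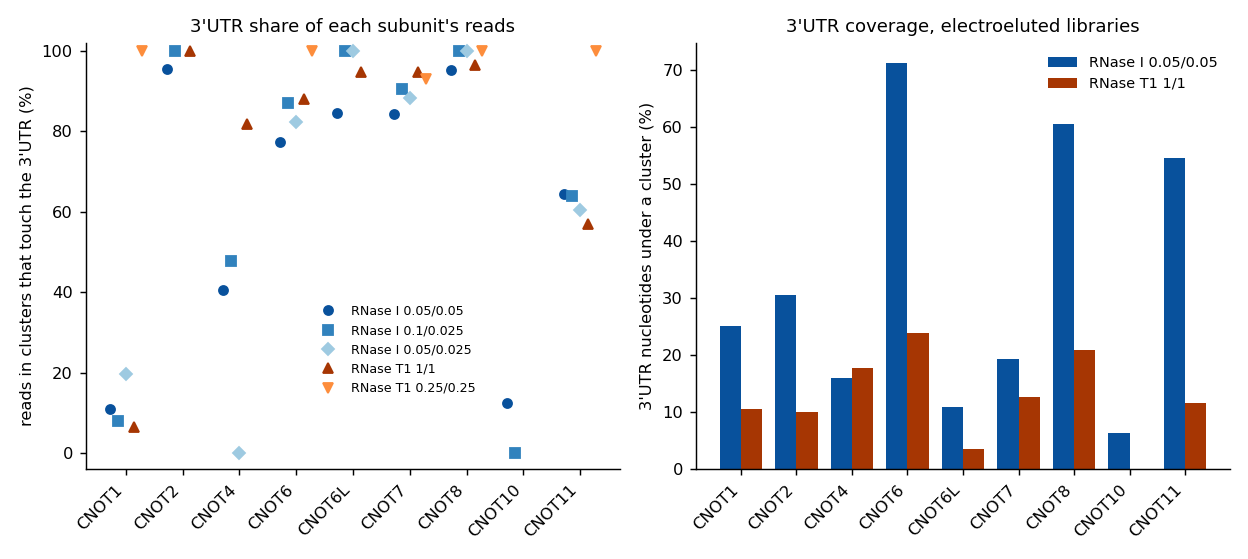
Left, share of each subunit's reads in clusters that touch the 3′UTR (%), in each IGF2BP3 library with a cluster on the gene; right, percent of the nucleotides of the canonical 3′UTR under a cluster in RNase I 0.05/0.05 and RNase T1 1/1. CNOT1 lies at or below 19.7% in its first 4 libraries, and the RNase I bar is the taller one in every gene with both bars except CNOT4.

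In the electroeluted pair, RNase I clusters covered more of the 3′UTR. The RNase I library also held more cluster reads (2362467 against 1157194), and the part of depth in this coverage was not tested. With RNase I 0.05/0.05 against RNase T1 1/1, clusters covered 71.3% and 23.9% of the CNOT6 3′UTR, 60.6% and 21.0% of that of CNOT8, 54.6% and 11.7% of that of CNOT11 and 30.5% and 10.0% of that of CNOT2. CNOT1 had 25.2% and 10.5%, CNOT7 19.4% and 12.6%, and CNOT6L 10.9% and 3.48%. CNOT4 went the other way with 16% and 17.8% of its canonical 3′UTR, but with the 3′UTRs of all transcripts joined, all 8 subunits, CNOT4 included, were more broadly covered after RNase I. Coverage was broader after RNase I in 7 of 8 subunits with 3′UTR clusters in both libraries, beside 94.7% of the coding genes, so the share of the subunits was no higher than the background. The median length of subunit clusters was 64.0 nt after RNase I 0.05/0.05 and 33.0 nt after RNase T1 1/1, and it was 55, 50.5 and 39.5 nt in RNase I 0.1/0.025, RNase I 0.05/0.025 and RNase T1 0.25/0.25.

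Levels per gene were compared between the enzymes within each extraction. In the electroeluted pair the median log2 ratio of RNase I over RNase T1, with 1 CPM added to both, was −0.09 over the 9 subunits with a cluster and 0.17 over 9198 coding genes. The raw log2 ratio of CNOT1 was 0.97 (0.73 to 1.21), or 1.95-fold. That of CNOT4 was −0.66 (−1.0 to −0.32) and that of CNOT7 −0.33 (−0.51 to −0.16). CNOT2, CNOT6, CNOT6L, CNOT8 and CNOT11 had intervals that included 0, between −0.21 for CNOT8 and 0.10 for CNOT11. Over 2-fold higher after RNase I was 1 of 9 subunits, beside 31.4% of the coding genes, and that was CNOT10, which had no cluster after RNase T1. None was over 2-fold higher after RNase T1, beside 17.7%.

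In the crushed-gel pair, RNase I 0.1/0.025 over RNase T1 0.25/0.25, 4 of the 9 subunits had no RNase T1 cluster, and 7 passed 2-fold higher after RNase I with 1 CPM added, beside 57.2% of 6475 coding genes. None passed 2-fold higher after RNase T1, beside 6.76%. Among the 5 subunits with clusters in both libraries, the raw log2 ratio was 3.52 for CNOT1 (2.24 to 4.79), 1.43 for CNOT11 (0.32 to 2.54) and 1.25 for CNOT8 (0.05 to 2.46). It was −0.43 for CNOT6 (−0.73 to −0.13) and −0.48 for CNOT7 (−0.81 to −0.16). CNOT1 was thus higher after RNase I in both pairs, CNOT7 was higher after RNase T1 in both, and the CNOT6 interval included 0 in the electroeluted pair. Over all 5 libraries, CNOT1 had 307 CPM ± 15.1 (SD, n = 3) for RNase I and 88.2 ± 86 (SD, n = 2) for RNase T1, with an exact permutation p = 0.2 and an adjusted p = 0.35. The same exact permutation test gave CNOT6 p = 0.2, CNOT11 p = 0.4, CNOT7 p = 0.6 and CNOT8 p = 1. So few libraries leave no room for any gene to pass, whatever its values. Nothing about the genes therefore follows from this test. The RNase T1 reads behind the CNOT1, CNOT8 and CNOT11 values were 5, 6 and 7.

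**Figure D4:**
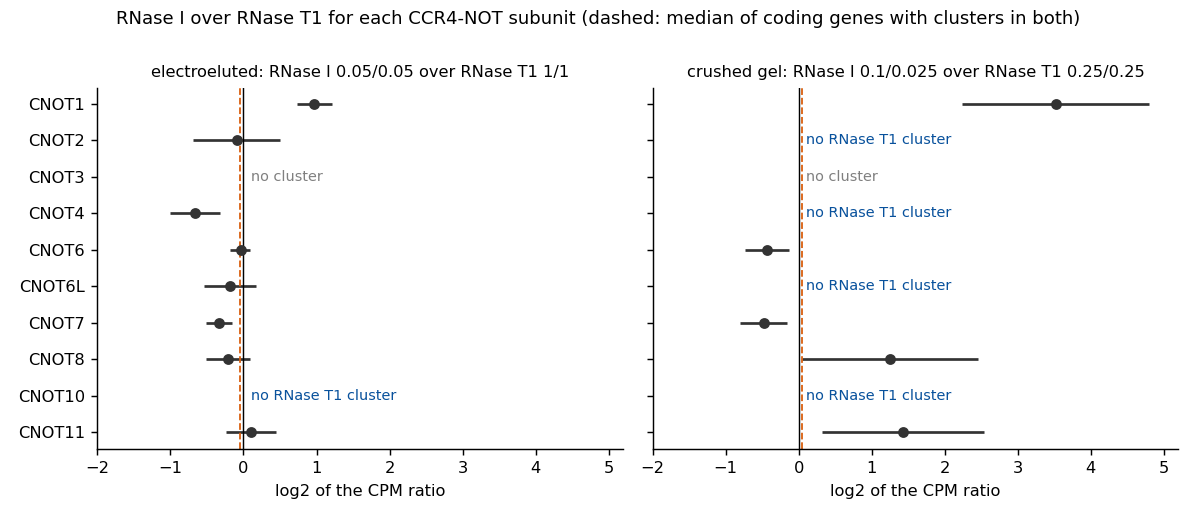
Log2 of the CPM ratio of RNase I over RNase T1 for each subunit, in the electroeluted pair (left) and the crushed-gel pair (right), with 95% counting intervals; the dashed line is the median of coding genes with clusters in both libraries. CNOT1 lies at 0.97 and 3.52, right of the line in both pairs, and CNOT7 at −0.33 and −0.48, left of it in both.

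Sites shared by libraries were counted over the whole complex. Joining overlapping clusters of the 5 IGF2BP3 libraries gave 173 sites, 89 touching a 3′UTR and 83 in coding sequence. Of these, 78 were found in 1 library, 36 in 2, 25 in 3, 21 in 4 and 13 in all 5, or 7.51%, beside 6.68% of 79860 sites of coding genes. The 13 lay on CNOT6 (6), CNOT7 (5), CNOT8 (1) and CNOT11 (1). Both enzymes found 61 sites, RNase I alone 93 and RNase T1 alone 19. All 3 RNase I libraries found 45 sites and both RNase T1 libraries 15. These splits by enzyme were not computed for the sites of all coding genes. CNOT2, CNOT4, CNOT6L and CNOT10 lacked clusters in at least 1 library and so could have no common site, whereas CNOT1 had clusters in all 5 libraries but no site common to them.

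Conversion is the mark of crosslinking, and subunit reads carried it at the rate of each library. Over all subunit reads there were 0.632 T-to-C events per read after RNase I 0.05/0.05 (0.605 to 0.658), 0.665 after RNase I 0.1/0.025 (0.62 to 0.713) and 0.604 after RNase I 0.05/0.025 (0.555 to 0.656). There were 0.485 after RNase T1 1/1 (0.452 to 0.519) and 0.562 after RNase T1 0.25/0.25 (0.47 to 0.667). Clusters of all coding genes had 0.638, 0.651, 0.608, 0.512 and 0.552, inside the subunit intervals in all 5 libraries. The RNase T1 1/1 value was the lowest, and its interval lay below those of the RNase I libraries. CNOT6 had 0.618, 0.668, 0.592, 0.456 and 0.5 events per read, and CNOT1 0.633, 0.675, 0.7, 0.558 and 0.6. At the 90-nt CNOT6 site, where most reads came from RNase T1, the clusters had 0.41, 0.556 and 0.214 events per read in the RNase I libraries and 0.402 and 0.231 in the RNase T1 libraries. These rest on 39, 18, 14, 107 and 26 reads. The leading CNOT1 site had 0.616, 0.875 and 0.538 in the RNase I libraries and 0.556 in RNase T1 1/1, the last from 9 reads.

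**Figure D5:**
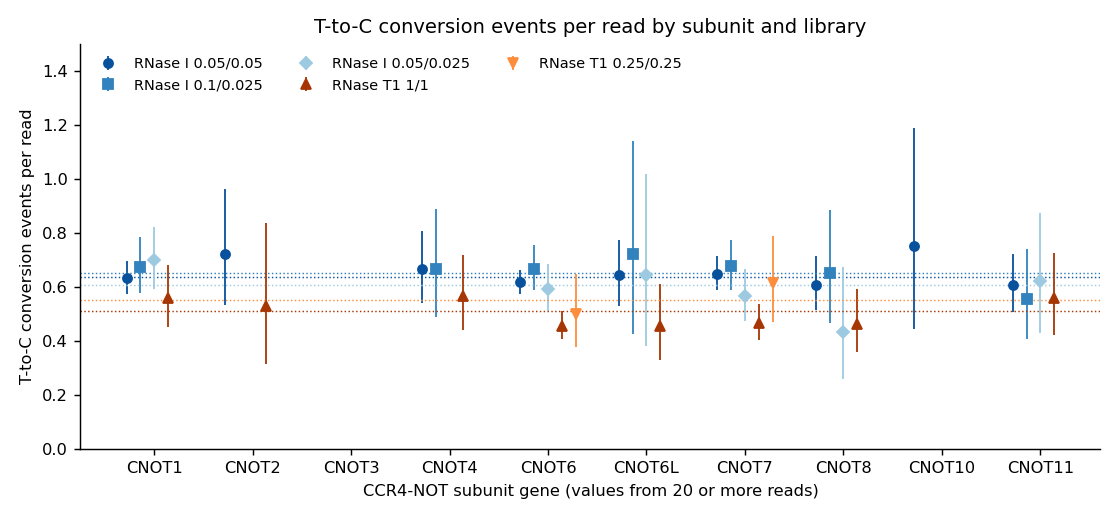
T-to-C conversion events per read for each subunit in each IGF2BP3 library, for values from at least 20 reads, with 95% Poisson intervals; dotted lines are the values over the clusters of all coding genes in each library. The RNase T1 1/1 points lie between 0.454 and 0.567, and the RNase I points lie between 0.554 and 0.75 except CNOT8 at 0.432 after RNase I 0.05/0.025.

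IGF2BP3 is known to favor CA-rich RNA, and CATT, CATA or CATC on the transcribed strand was searched in the cluster sequences. With RNase I 0.05/0.05 it occurred in 116 of 170 subunit clusters, 68.2% (60.9 to 74.8%), beside 65.9% of coding gene clusters of the same lengths. The shares were 73.7% beside 66.1% after RNase I 0.1/0.025, 62.2% beside 64.3% after RNase I 0.05/0.025, 59.5% beside 60.7% after RNase T1 1/1 and 57.1% beside 64.9% after RNase T1 0.25/0.25. The background lay inside the subunits' Wilson interval in each library. Tetramers that hold a G within them were rarer after RNase T1, which cuts after G. Subunit clusters were also shorter after RNase T1, and a shorter cluster holds fewer tetramers. The backgrounds match lengths within each library and not between enzymes, so the part of the cutting was not tested. CAGT occurred in 34.7%, 31.6% and 37.8% of the subunit clusters after RNase I. It occurred in 12.6% after RNase T1 1/1 and in 28.6% after RNase T1 0.25/0.25, the latter in 8 of 28 clusters. All coding gene clusters of the same lengths had 35.6%, 34.2%, 33.0%, 11.2% and 17.0%. GGAC occurred in 19.4%, 17.9% and 17.6% after RNase I and in 6.31% and 7.14% after RNase T1, beside 17.3%, 14.2%, 13.8%, 5.07% and 5.19%. The last base of a cluster was G in 106 of 111 subunit clusters after RNase T1 1/1, 95.5% (89.9 to 98.1%), and in 26 of 28 after RNase T1 0.25/0.25. With RNase I it was G in 13.5%, 13.7% and 6.76%. Over all clusters the last base was G in 94.8% and 92.0% after RNase T1 and in 13.3%, 12.3% and 12.1% after RNase I. The subunit intervals held these background values for both tetramers and for the last base, so none of them sets the subunits apart.

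The partners of the complex were read beside it, a list of 44 genes of associated and recruiting proteins, other deadenylases, poly(A)-binding proteins and decapping factors, of which 36 had a cluster. Targets among the 44 numbered 27, 28 and 27 in the RNase I libraries 0.05/0.05, 0.1/0.025 and 0.05/0.025, and 24 and 19 in the RNase T1 libraries 1/1 and 0.25/0.25, and 17 were called in all 5. As shares of the 44 these are 61.4%, 63.6%, 61.4%, 54.5% and 43.2%, beside 46.9%, 45.6%, 47.1%, 42.1% and 29.3% of coding genes with a cluster. The bases differ, since 8 of the 44 had no cluster. For the 17 called in all 5 libraries no share of coding genes was computed. The partner with the most reads was PABPC1, a cytoplasmic poly(A)-binding protein, with 4872, 7803 and 8838 CPM after RNase I and 2001 and 9197 CPM after RNase T1. PABPC1 was also the only listed gene with an IgG cluster, of 15 reads. ZFP36L1, which binds AU-rich elements and recruits the complex, had 1330, 1098, 1088, 1129 and 1661 CPM, and PUM2, a Pumilio protein, had 609, 656, 662, 583 and 554 CPM. CNOT9, the CAF40 subunit, was singled out after its values were seen, because it is a core subunit outside the 10 genes. It had 169, 304, 267, 189 and 252 CPM and was called in all 5 libraries.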

How the data were processed

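IR-PAR-CLIP clusters of 5 IGF2BP3 libraries and 1 IgG library of HCT116 cells were analyzed. The authors extracted and deduplicated molecular identifiers with UMI-tools 1.1.1, trimmed with Trimmomatic 0.30, aligned with bowtie 0.12.7 to GRCh38.p13 and called clusters per library with PARalyzer. Its settings file, which the study gives as supplemental material, was not used here. The deposited values are counts per cluster (reads, conversion events and locations), not normalized by the authors. The authors' deposited mode score, a fraction, entered no result, and the mode's position only placed the printed sequence windows.

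All 244645 cluster sequences were identical to GRCh38 at the given coordinates. Clusters were joined to GENCODE release 44 exons by an overlap of 1 nt on the same strand and a cluster that touched several features went to the 3′UTR first, then to coding sequence, then to the 5′UTR. The canonical transcript gave lengths and distances. CPM used the cluster reads of a library, which are not library sizes, and ratios used a pseudocount of 1 CPM. Intervals are 95% Wilson or Poisson. Enzymes were compared by a two-sided exact permutation test of 3 against 2 libraries with Benjamini-Hochberg adjustment, added after seeing the data. Each member was named with its largest cluster per library, its site of highest mean CPM and up to 2 further sites found in all 5 libraries, and of the partners the 3 with the highest mean CPM. The members and lists were chosen with earlier results of these data known. On simulated clusters with fixed read numbers and conversion rates, the code of the target rule returned 200 of 200 targets among 600 genes. The CPM limit there was set from the simulated reads. The outcome followed from the construction, so it checks the code and not how well the rule finds targets. The tools were scipy 1.17.1, pandas 2.3.3, numpy 2.4.6 and matplotlib 3.10.9 in Python 3.11.15. Alternatives changed thresholds, depth, gene and feature assignment, pseudocount and repeated sequence.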

Additional observations from a re-analysis of the deposited data

How the results depend on the processing

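Of 125 alternative values, 97 stayed within counting error, or within 1.5 times for counts, and 28 did not. For a median log2 ratio, the counting error used was that of the 1 subunit nearest the median, not of the median itself. The electroeluted median log2 ratio, −0.09, became 0.21 from the means of all RNase I over all RNase T1 libraries. This change of sign lay within the counting interval of CNOT2, the nearest subunit (−0.69 to 0.5). All 15 alternatives of the conversion rate and both of the 3′UTR coverage count stayed within these limits, the latter at 7 of 8 when thinned and 8 of 8 with the 3′UTRs of all transcripts. The thinning dropped only RNase I clusters left with fewer than 2 reads and kept the full length of the others. It could therefore hardly change the coverage count and does not test the part of depth in it. Subunits called as targets numbered 2 with RNase I 0.05/0.05 and 2 with RNase T1 0.25/0.25 at over 0.75 events per read. They numbered 3 with RNase I 0.05/0.025 and 3 with RNase T1 1/1 at 20 CPM. With at least 20 reads required they numbered 3 with RNase I 0.05/0.025, 4 with RNase T1 1/1 and 0 with RNase T1 0.25/0.25, where the single subunit cluster of 20 or more reads, on CNOT6, had 0.231 events per read. Leaving out clusters with a 25-nt stretch found elsewhere, an alternative chosen after seeing the data, lowered the members' share of cluster reads to 0.115%, 0.114%, 0.0997%, 0.124% and 0.102% in the 5 libraries, as it must. It lowered the 3′UTR share to 58.8%, 60.3%, 58.6% and 77.1% in the first 4, and the sites of all 5 libraries to 8. It also removed the target calls of CNOT7 in RNase I 0.05/0.05 and of CNOT6L in RNase I 0.05/0.025. With coding sequence before 3′UTR, the 3′UTR share was 56.6% with RNase I 0.05/0.05, 62.1% with RNase I 0.05/0.025 and 78.1% with RNase T1 1/1. With canonical features only it was 63.0% with RNase I 0.05/0.05. The crushed-gel median log2 ratio, 3.45 with 1 CPM added, was 1.58 with 5 CPM and 0.21 from the same means. It was 1.25 over the 5 subunits with clusters in both libraries, also chosen after seeing the data, so it rests largely on subunits with no RNase T1 cluster. The share of clusters with CATT, CATA or CATC was 90% with RNase I 0.05/0.05 and 85.4% with RNase I 0.1/0.025 among clusters over 10 CPM. With clusters extended by 10 nt it was 75.7% with RNase I 0.05/0.025 and 69.4% with RNase T1 1/1. No background of coding gene clusters was computed for either change and lengths were not matched, so these shares show no enrichment. The causes of these moves were not tested except where given. No paired analysis was possible because there was 1 library per condition.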
